A study of Mus musculus with 40 samples.

Results

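Distal sites shared by all 3 cofactors were defined as NCoR peaks that had both a SMRT peak centre and an HDAC3 peak centre within 200 bp of their own centre and that lay outside every promoter. Promoters were the stretches that begin 1000 bp before and end 100 bp after a transcription start site (TSS) of the annotation. The sites were therefore chosen by the measured binding itself, and their sharing is a description and not a result. There were 8023 distal shared sites, which made up 22.8% of the 35138 NCoR peaks and 91.8% of the 8739 NCoR peaks that had both partners. The 3 peak lists came from chromatin immunoprecipitation followed by sequencing (ChIP-seq), which maps where a protein sits on DNA, in the livers of ad libitum fed male C57BL/6 mice that carried Bcl6 fl/fl, a Bcl6 gene flanked by recombination sites and left intact. Each list was made from 3 libraries, from separate animals by the study's methods, and the animals shared strain, tissue, genotype and feeding state. The other samples among the 40 of the series, which held other genotypes, feeding states, proteins and inputs, were not analysed here. The lists gave positions only, with no height, score or value per library, so that every error below is a 95% exact binomial interval that covers counting error and not the variation between animals. The sources used here did not give the sequencing depth per library.

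NCoR and SMRT are related corepressor proteins that bind no DNA themselves and are brought to it by transcription factors such as unliganded nuclear receptors and BCL6. Both hold HDAC3, a histone deacetylase whose activity depends on them, in a complex that removes acetyl groups from histones and keeps nearby genes low. In liver the complex is known for its part in lipid and glucose metabolism and in the daily rhythm of gene expression, and much of its binding lies away from promoters.

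Sequences of 9 distal shared sites are shown as examples. The first 6 contain a motif match and the centre of a region chosen for ChIP with quantitative PCR, and the last 3 are the first in chromosome order of the sites with the most kinds of the 20 motifs described below. Each is the 200 bp window around the NCoR centre on the plus strand of GRCm38, the assembly that mm10 names, as given by RefSeq. Capitals mark matches to the motifs, on either strand.
Cd36 site (chr5:17876768-17876967): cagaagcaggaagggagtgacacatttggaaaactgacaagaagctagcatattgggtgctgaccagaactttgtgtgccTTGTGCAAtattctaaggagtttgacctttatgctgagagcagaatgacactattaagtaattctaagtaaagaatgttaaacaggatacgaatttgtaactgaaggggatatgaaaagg
Abhd2 site (chr7:79310314-79310513): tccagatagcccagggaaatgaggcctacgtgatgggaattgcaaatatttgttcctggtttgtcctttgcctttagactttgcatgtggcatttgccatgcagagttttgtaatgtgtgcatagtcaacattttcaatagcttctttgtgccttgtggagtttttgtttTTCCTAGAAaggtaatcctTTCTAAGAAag
Acot4 site (chr12:84032944-84033143): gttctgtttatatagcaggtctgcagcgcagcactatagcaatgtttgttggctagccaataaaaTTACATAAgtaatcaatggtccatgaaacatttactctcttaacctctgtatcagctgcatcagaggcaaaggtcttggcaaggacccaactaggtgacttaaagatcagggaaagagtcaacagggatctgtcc
Bdh1 site (chr16:31399282-31399481): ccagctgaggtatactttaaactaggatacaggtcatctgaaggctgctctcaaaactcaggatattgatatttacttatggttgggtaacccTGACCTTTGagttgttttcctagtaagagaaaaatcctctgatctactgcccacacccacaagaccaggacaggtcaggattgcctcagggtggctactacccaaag
Ehhadh site (chr16:21782906-21783105): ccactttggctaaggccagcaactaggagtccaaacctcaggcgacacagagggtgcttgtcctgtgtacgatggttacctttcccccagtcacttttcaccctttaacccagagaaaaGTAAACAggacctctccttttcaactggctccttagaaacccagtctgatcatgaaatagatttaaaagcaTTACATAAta
Fads2 site (chr19:10122339-10122538): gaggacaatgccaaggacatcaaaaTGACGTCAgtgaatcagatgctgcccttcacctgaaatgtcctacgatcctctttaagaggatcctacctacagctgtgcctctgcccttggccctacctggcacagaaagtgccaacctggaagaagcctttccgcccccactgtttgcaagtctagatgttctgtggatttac
Dph6 site (chr2:114788324-114788523): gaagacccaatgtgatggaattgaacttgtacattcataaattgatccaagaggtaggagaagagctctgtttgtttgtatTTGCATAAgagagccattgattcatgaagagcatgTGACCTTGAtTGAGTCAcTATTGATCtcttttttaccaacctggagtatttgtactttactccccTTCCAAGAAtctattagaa
Ppp3ca site (chr3:136812883-136813082): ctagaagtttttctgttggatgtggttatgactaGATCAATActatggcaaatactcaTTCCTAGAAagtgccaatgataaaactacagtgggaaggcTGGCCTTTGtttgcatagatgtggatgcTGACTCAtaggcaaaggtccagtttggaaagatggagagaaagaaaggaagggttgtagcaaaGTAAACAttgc
Ddi2 site (chr4:141731931-141732130): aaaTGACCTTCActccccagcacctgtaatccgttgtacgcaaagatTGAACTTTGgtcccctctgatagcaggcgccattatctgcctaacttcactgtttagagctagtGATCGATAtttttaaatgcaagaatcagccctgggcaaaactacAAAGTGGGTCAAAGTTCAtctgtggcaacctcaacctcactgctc

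The Cd36 site lay in an intron of Cd36, a fatty acid transporter, and held a C/EBP match at bases 81 to 88. The Abhd2 site was intronic, 37215 bp downstream of the TSS, with a pair of BCL6/STAT matches at bases 171 to 179 and 190 to 198. The Acot4 site, at -5335 bp (negative values are upstream of a TSS) from an acyl-CoA thioesterase gene, held a D-box at bases 66 to 73. The Bdh1 site, at -22898 bp from the gene of an enzyme that interconverts ketone bodies, held an HNF4 half-site at bases 94 to 102. The Ehhadh site, in an intron of a peroxisomal fatty acid oxidation gene, held a FOX match at bases 120 to 126 and a D-box at bases 191 to 198. The Fads2 site, at -20693 bp from a fatty acid desaturase gene, held a cyclic AMP response element (CRE) at bases 26 to 33.

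The 3 sites with the most motif kinds each held 5 of the 20. The Dph6 site lay between genes, at -133460 bp from the nearest protein-coding TSS, and its matches were C/EBP, ERR, AP-1, HNF6/CUX2 and BCL6/STAT in that order along the window. The Ppp3ca site was intronic and held HNF6/CUX2, BCL6/STAT, HNF4 half-site, AP-1 and FOX matches. The Ddi2 site lay between genes and held ERR, HNF4 half-site, HNF6/CUX2, RORE and DR1 matches, of which RORE, DR1 and another HNF4 half-site overlapped in 1 run of capitals.

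Of the 15 regions with quantitative PCR primers, which were placed on the genome by those primers, 10 had their centre inside a distal shared site. Por, Acot2 and Angptl4 made up the 3 of these whose windows held none of the 20 motifs. A further 2 regions, at Cyp4a31 and Acot4, lay in distal NCoR peaks with HDAC3 and without SMRT, and 1 lay in a shared promoter peak. The remaining 2, at Idh2 and Acot3, had their centre in no NCoR peak, and the nearest NCoR centre lay at -128 bp and -456 bp from theirs, in a distal shared site and a shared promoter peak. These regions were chosen by the study for binding, so their count is not evidence about distal shared sites.

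Within the sites the 3 centres lay close together, much closer than the rule required. SMRT centres were at a median of 22 bp from the NCoR centre (interquartile range 10 to 41) and HDAC3 centres at a median of 21 bp (9 to 38). SMRT and HDAC3 centres, whose distance the rule did not limit directly, were at a median of 25 bp from each other (11 to 43). All 3 centres fell within a span of 50 bp at 5467 sites (68.1%, 67.1 to 69.2) and within 100 bp at 7624 sites (95.03%, 94.5 to 95.5). The span was over 200 bp at 15 sites. No site had a second SMRT or HDAC3 centre within reach, of 8023 sites. The edge of the rule was thinly filled, with 11 sites whose farther partner lay in the last 20 bp of reach and 11 distal NCoR peaks whose farther partner lay in the 20 bp beyond it. At the upstream edge of the promoter window 35 shared sites lay within 100 bp outside and 31 within 100 bp inside, and at the downstream edge 26 lay outside and 56 inside.

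**Figure D1:**
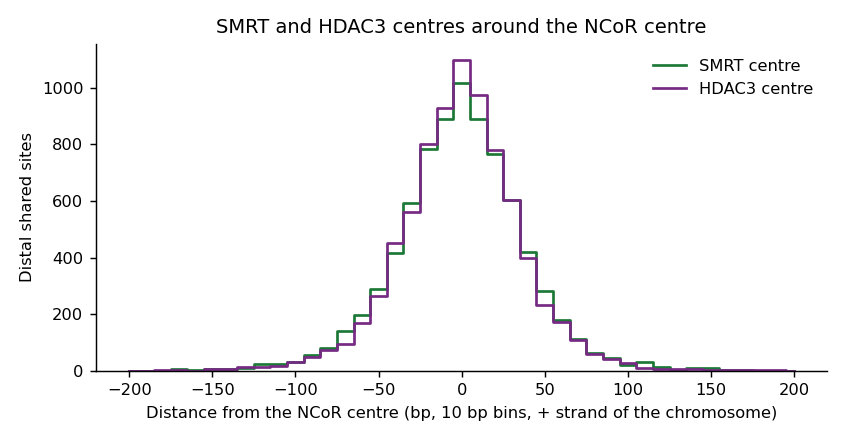
Histogram of the distance in bp, in bins of 10 bp, from the NCoR centre to the SMRT centre (green) and the HDAC3 centre (purple) at the 8023 distal shared sites, with the number of sites on the y axis. Both distributions peak at the NCoR centre and fall to few sites beyond 100 bp on either side.

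None of the 3 proteins was regularly in the middle. The middle centre was that of NCoR at 2876 sites (35.8%, 34.8 to 36.9), HDAC3 at 2553 (31.8%, 30.8 to 32.9) and SMRT at 2277 (28.4%, 27.4 to 29.4), with ties at the other 317. SMRT and HDAC3 lay on the same side of NCoR at 4929 of 7805 sites where neither coincided with it (63.2%, 62.1 to 64.2). These are the sites where NCoR was not the middle centre, so the share is not a separate observation. With 3 centres placed alike, each would be in the middle equally often, so the share is not to be read against an even split. Where both were at least 20 bp away, the share on the same side was 76.4% (74.7 to 78.1) of 2551 sites. Asking for distance from NCoR in itself favours sites where NCoR is an outer centre. As these distances were used by the rule, they are given without a test. In the classes with a single partner the distances were larger, with a median of 26 bp from NCoR to HDAC3 at the 4525 distal sites without SMRT and of 31 bp from NCoR to SMRT at the 1330 distal sites without HDAC3.

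Next, the place of the sites in the genome was compared with that of the 16749 distal NCoR-only sites, the NCoR peaks outside promoters that had neither partner in reach. Distal shared sites were found in introns at 4661 positions (58.1%, 57.0 to 59.2) and between genes at 2985 (37.2%, 36.1 to 38.3). A further 122 lay in coding sequence (1.52%), 146 in untranslated regions (1.82%) and 109 in other exons (1.36%). The intronic share was below that of NCoR-only sites, at 60.2%, and the odds ratio was 0.916 (adjusted p = 0.00183 by a two-sided Fisher's exact test over 5 such comparisons). Of the intronic sites, 37.6% (36.2 to 39.0) were in the first intron of a protein-coding transcript, against 40.4% of those with NCoR alone (odds ratio 0.889, adjusted p = 0.00183 by Fisher's exact test). Both differences were lost when neighbouring sites within 10 kb were counted once, with adjusted p of 0.296 for introns and 0.0679 for the first intron. The first-intron difference was also lost with promoters widened to 5000 bp on either side (odds ratio 0.925, adjusted p = 0.104).

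Distal shared sites lay at a median of 12.04 kb from the nearest TSS (interquartile range 4.92 to 27.1 kb), and NCoR-only sites at 11.5 kb (4.36 to 27.3). A TSS was found within 10 kb in 44.1% (43.0 to 45.2) of distal shared sites and in 45.7% (44.98 to 46.5) of those with NCoR alone (odds ratio 0.936, adjusted p = 0.0164 by Fisher's exact test). With promoters widened to 5000 bp on either side the odds ratio was 1.01 (adjusted p = 0.841), and with neighbours counted once it was 0.956 (adjusted p = 0.175). Next to the promoter window, 0.648% of shared and 1.89% of NCoR-only sites had a TSS within 300 bp, and in the bin of 10 to 30 kb the shares were 33.7% and 31.8%. At the far end 253 shared sites (3.15%, 2.78 to 3.56) were over 100 kb from any TSS, beside 3.12% of NCoR-only sites.

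**Figure D2:**
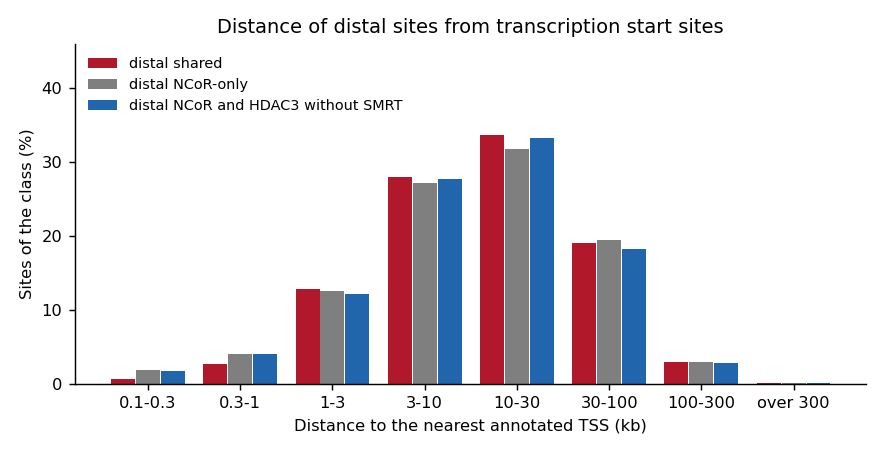
Share of sites (%, y axis) by distance to the nearest annotated TSS in kb (x axis, bins of unequal width) for distal shared sites (red), distal NCoR-only sites (grey) and distal NCoR sites with HDAC3 and without SMRT (blue). The largest bin of each class is 10 to 30 kb, with 33.7% of distal shared sites, and in the 2 bins below 1 kb distal shared sites have the smallest share of the 3 classes.

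The windows of distal shared sites were slightly poorer in G and C and in repeats than those of NCoR-only sites. The median GC content of the 200 bp window was 47.0% (interquartile range 42.5 to 51.5), and 34.9% (33.9 to 36.0) of windows held at least 50% GC, against 37.8% (37.1 to 38.5) of NCoR-only windows (odds ratio 0.884, adjusted p = 3.22e-05 by Fisher's exact test). That difference was lost with promoters widened to 5000 bp (odds ratio 0.939, adjusted p = 0.0982). The centre fell in a repeat at 706 sites (8.80%, 8.19 to 9.44), against 10.6% (10.1 to 11.1) of sites with NCoR alone (odds ratio 0.814, adjusted p = 3.22e-05 by Fisher's exact test). CpG dinucleotides averaged 2.56 per window in distal shared sites, 3.09 in distal NCoR-only sites and 7.07 in shared promoter sites. On chromosome X, 78 of 506 distal NCoR peaks were shared sites (15.4%, 12.4 to 18.9), below the range of 23.3% to 29.3% on the autosomes.

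To see which transcription factor elements the sites held, 20 consensus motifs were searched on both strands of the windows. The short ones were BCL6/STAT (TTCCNAGAA or TTCCNGGAA or TTCTNAGAA or TTCTNGGAA), ERR (TCAAGGTCA or TGAAGGTCA), the HNF4 half-site (CAAAGGCCA or CAAAGGTCA or CAAAGTCCA or CAAAGTTCA), FOX (TGTTTAC), HNF6/CUX2 (TATCGATC or TATCGATT or TATTGATC or TATTGATT), ETS (CCGGAAGT), C/EBP (TTACGCAA or TTATGCAA or TTGCGCAA or TTGTGCAA), AP-1 (TGACTCA or its reverse complement TGAGTCA), CRE (TGACGTCA), D-box (TTACGTAA or TTATGTAA) and E-box (CACGTG). The longer ones were DR1, DR4, IR1, RORE, RevDR2, HNF1, GRE, NFI and CTCF. RORE is the element of the clock receptors REV-ERB and ROR. A DR1 match can contain an HNF4 half-site and a RevDR2 match can overlap a RORE, so these are not independent. A match describes the letters of a window and does not show that a factor was bound.

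HNF6/CUX2, C/EBP, FOX, D-box, HNF4 half-site, BCL6/STAT and IR1 matches were more frequent in distal shared than in distal NCoR-only sites. By Fisher's exact test with adjustment over 60 comparisons, 7 of the 20 motifs (35%) were higher in distal shared sites and 3 (15%) were lower at a threshold of 0.05. HNF6/CUX2, the element of a pair of homeodomain factors, was found in 687 sites (8.56%, 7.96 to 9.20) against 4.83% in NCoR-only sites, which gave an odds ratio of 1.85 (adjusted p = 1.43e-27). C/EBP, the element of leucine zipper factors that drive hepatocyte genes, was found in 624 sites (7.78%, 7.20 to 8.39) against 4.603% (odds ratio 1.75, adjusted p = 1.34e-21). FOX, the element of the FOXA pioneer factors, was the most frequent of all, in 811 sites (10.1%, 9.46 to 10.8) against 7.23% (odds ratio 1.44, adjusted p = 5.15e-13). In all 35138 NCoR windows these 3 motifs were found in 5.67%, 5.52% and 7.74%, respectively.

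The D-box, read by the clock output factors DBP, TEF and HLF and by the repressor NFIL3, was found in 245 distal shared sites (3.05%, 2.69 to 3.45) against 1.56% in NCoR-only sites (odds ratio 1.99, adjusted p = 5.15e-13 by Fisher's exact test). It was present in 2.001% of all NCoR windows. HNF4 half-sites were found in 738 sites (9.20%, 8.57 to 9.85) against 7.76% (odds ratio 1.20, adjusted p = 0.000845). BCL6/STAT matches, which both BCL6 and the STAT factors can read, were found in 357 sites (4.45%, 4.01 to 4.92) against 3.66% (odds ratio 1.23, adjusted p = 0.0117). IR1, the element of the bile acid receptor FXR, was rare, in 31 sites (0.386%, 0.263 to 0.548) against 0.179% (odds ratio 2.16, adjusted p = 0.0135). In windows of 100 bp the differences of the HNF4 half-site (odds ratio 1.13, adjusted p = 0.178), BCL6/STAT (odds ratio 1.12, adjusted p = 0.440) and IR1 (odds ratio 2.09, adjusted p = 0.147) did not pass, and IR1 also did not pass with repeats removed (odds ratio 1.80, adjusted p = 0.134).

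The 3 motifs that were lower were rare in both classes. ETS matches were found in 11 distal shared sites (0.137%, 0.0685 to 0.245) against 0.382% in NCoR-only sites (odds ratio 0.358, adjusted p = 0.00365 by Fisher's exact test). CTCF, the insulator protein, had a match in 23 sites (0.287%, 0.182 to 0.430) against 0.615% (odds ratio 0.465, adjusted p = 0.00291). RevDR2, a paired element of REV-ERB, had a match in 11 sites against 0.322% in NCoR-only sites (odds ratio 0.424, adjusted p = 0.0248). All 3 differences were past the threshold when compared within strata of window GC, and none was with promoters widened to 5000 bp (odds ratio 0.425 and adjusted p = 0.0898 for ETS, 0.542 and 0.0765 for CTCF, 0.443 and 0.0830 for RevDR2) or in 100 bp windows (0.596 and 0.432 for ETS, 0.417 and 0.0798 for CTCF, 0.407 and 0.0665 for RevDR2). In 100 bp windows the E-box was lower (odds ratio 0.749, adjusted p = 0.0320). DR1, RORE, ERR, AP-1, E-box, CRE, HNF1, GRE, DR4 and NFI did not pass. Of these, AP-1 was present in 6.22% against 5.96%, ERR in 2.27% against 2.33%, RORE in 1.79% against 1.73% and DR1, the element of PPAR with RXR and of HNF4, in 1.63% (1.37 to 1.93) against 1.58%.

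**Figure D3:**
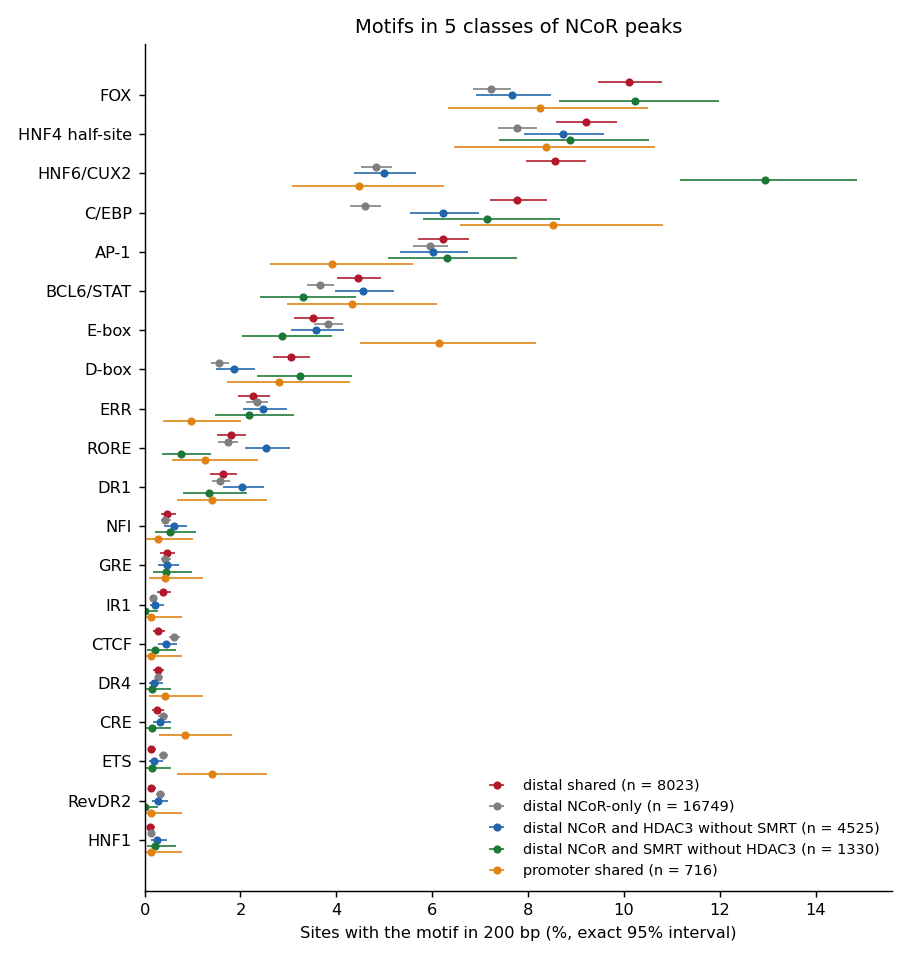
Share of sites (%, x axis) with each of the 20 motifs in the 200 bp window, for distal shared sites (red), distal NCoR-only sites (grey), distal NCoR sites with HDAC3 and without SMRT (blue), distal NCoR sites with SMRT and without HDAC3 (green) and promoter shared sites (orange), with points for the shares and bars for exact 95% intervals. HNF6/CUX2 is found in 8.56% of distal shared sites and, higher still, in 12.9% of distal sites with SMRT and without HDAC3, beside 4.47% to 4.99% in the others.

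The 1330 distal NCoR sites with SMRT and without HDAC3 were not part of these tests, and their shares are given as a description. HNF6/CUX2 was found in 12.9% (11.2 to 14.9) of them, above its share in distal shared sites. FOX was found in 10.2% (8.65 to 11.98), C/EBP in 7.14% (5.82 to 8.66), the D-box in 3.23% (2.35 to 4.33) and the HNF4 half-site in 8.87% (7.399 to 10.5), with intervals that overlapped those of distal shared sites. BCL6/STAT was found in 3.31% (2.41 to 4.42), RORE in 0.752% (0.361 to 1.38) and IR1 in 0 of the 1330, which by the exact interval allows up to 0.277%. The higher shares of HNF6/CUX2, FOX, C/EBP and the D-box beside NCoR-only sites were therefore not particular to sites with all 3 cofactors.

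A narrower question was which motifs went with SMRT among distal sites that already had NCoR and HDAC3. Compared with the 4525 distal NCoR sites with HDAC3 and without SMRT, 4 of 20 motifs (20%) were higher in distal shared sites and 1 (5%) was lower. HNF6/CUX2 was found in 8.56% against 4.99% (odds ratio 1.78, adjusted p = 5.15e-13 by Fisher's exact test) and FOX in 10.1% against 7.67% (odds ratio 1.35, adjusted p = 4.26e-05). The D-box was found in 3.05% against 1.86% (odds ratio 1.67, adjusted p = 0.000327) and C/EBP in 7.78% against 6.23% (odds ratio 1.27, adjusted p = 0.00525). The C/EBP difference did not pass within strata of window GC (adjusted p = 0.0574) or in 100 bp windows (adjusted p = 0.388). RORE was lower, at 1.79% (1.52 to 2.11) against 2.54% (odds ratio 0.701, adjusted p = 0.0209), and did not pass with repeats removed (adjusted p = 0.158) or with centres within 100 bp (adjusted p = 0.0769). BCL6/STAT was present in 4.45% and 4.55% and the HNF4 half-site in 9.20% and 8.73%, differences that did not pass (adjusted p = 0.892 and 0.748).

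Shared sites at promoters offered a comparison in which all 3 cofactors were present on both sides. Of the 20 motifs, 2 (10%) were higher in distal shared than in the 716 promoter shared sites, and 2 (10%) were lower. HNF6/CUX2 was found in 8.56% against 4.47% (odds ratio 2.002, adjusted p = 0.000426 by Fisher's exact test) and AP-1 in 6.22% against 3.91% (odds ratio 1.63, adjusted p = 0.0346). ETS was found in 0.137% against 1.40% (odds ratio 0.0969, adjusted p = 1.96e-05) and the E-box, the element of CLOCK with BMAL1 among others, in 3.51% against 6.15% (odds ratio 0.556, adjusted p = 0.00415). Promoter windows had a median GC content of 52.0%, and within strata of GC HNF6/CUX2 (adjusted p = 0.527), AP-1 (adjusted p = 0.190) and the E-box (adjusted p = 0.0989) did not pass, whereas C/EBP was lower in distal shared sites (odds ratio 0.685, adjusted p = 0.0324). C/EBP, FOX, the HNF4 half-site and BCL6/STAT were present in 8.52%, 8.24%, 8.38% and 4.33% of promoter shared sites, none of them past the threshold without strata.

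Few sites held several kinds of motif. None of the 20 was found in 4176 distal shared sites (52.1%, 50.95 to 53.1), against 60.4% (59.6 to 61.1) of NCoR-only sites. A single kind was found in 2942 sites (36.7%), 2 kinds in 773 (9.63%) and 3 or more in 132 (1.65%, 1.38 to 1.95), beside 0.908% (0.769 to 1.06) of NCoR-only sites with 3 or more. The 6 main motifs did not, on the whole, come together in a window more than their own shares gave. Of their 15 pairs, 11 were found in fewer distal shared sites than the product of the 2 shares, with ratios of 0.617 to 1.25. The same held for 14 of the 15 pairs in distal NCoR-only sites, with ratios of 0.593 to 1.33, so it was not particular to distal shared sites. HNF6/CUX2 with C/EBP was seen in 35 distal shared sites where the product gave 53.4, and HNF4 half-site with HNF6/CUX2 in 43 where it gave 63.2. BCL6/STAT with the HNF4 half-site was seen in 36 sites where it gave 32.8.

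BCL6/STAT matches were further split by their letters. Of the 369 matches in distal shared sites, 122 (33.1%) were TTCCAGGAA, 74 (20.1%) were TTCCCAGAA, 59 (15.99%) were TTCCTAGAA and 40 (10.8%) were TTCTCAGAA, each pooled with its reverse complement. In NCoR-only sites TTCCTAGAA made up 60 of 632 matches (9.49%), TTCCAGGAA made up 194 (30.7%) and TTCTCAGAA 91 (14.4%). The words TTCCCGGAA and TTCCGAGAA, which hold a CpG, numbered 4 and 3 in distal shared sites and 26 and 15 in NCoR-only sites. These splits were made without a test.

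The position of motifs inside the window was then examined. A motif spread evenly would have its centre within 50 bp of the NCoR centre in 51.5% to 52.3% of matches, depending on its length. In distal shared sites the share was 70.0% for HNF6/CUX2 (506 of 723 matches), 66.6% for C/EBP, 63.8% for FOX, 62.6% for the HNF4 half-site and 59.9% for ERR. For BCL6/STAT it was 50.4% (186 of 369), with a median distance of 49.5 bp where an even spread would give 48.0 bp. HNF6/CUX2 matches were the nearest, at a median of 30 bp. In none of the 6 motifs (0%) were matches called more central in distal shared than in NCoR-only sites by Fisher's exact test with adjustment, and 1 of the 6 differed at an unadjusted p below 0.05. That motif was ERR, at 59.9% against 69.9% (odds ratio 0.644, adjusted p = 0.134). HNF6/CUX2 matches were within 50 bp in 70.0% and 73.4% (adjusted p = 0.305).

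**Figure D4:**
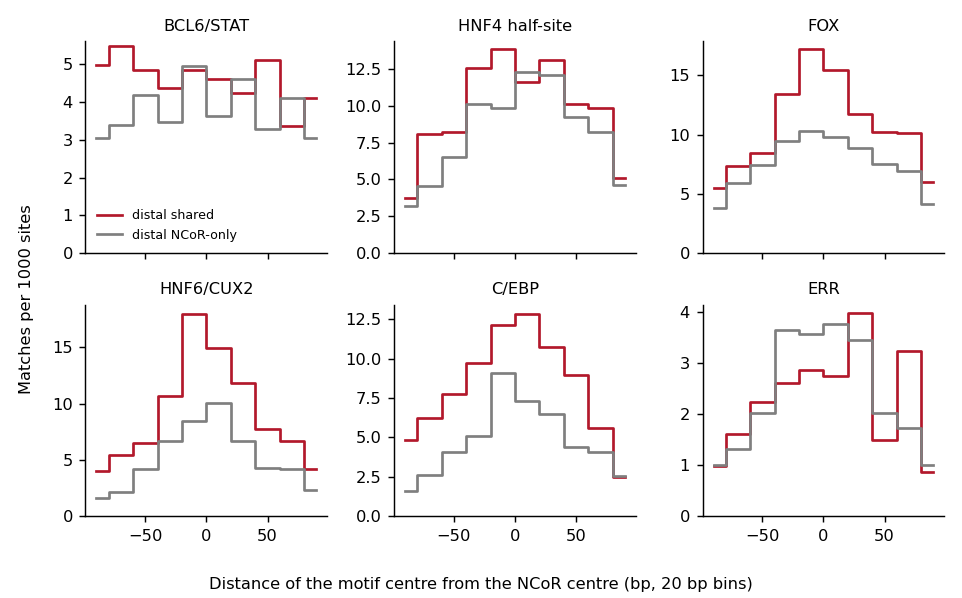
Matches per 1000 sites (y axis) by distance of the motif centre from the NCoR centre in bp (x axis, bins of 20 bp) for 6 motifs in distal shared sites (red) and distal NCoR-only sites (grey). HNF6/CUX2, FOX and C/EBP matches gather around the centre in both classes and are more numerous in distal shared sites, and BCL6/STAT matches do not gather there.

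It was also asked which of the 3 cofactor centres lay nearest to a motif, in sites with exactly 1 match to it. In the windows around the NCoR centre, 6 of 18 pairs of centres differed (33.3%) by an exact binomial test, adjusted over the 18, each time with NCoR nearer. For the HNF4 half-site NCoR was nearer than SMRT in 409 sites and farther in 285 (58.9%, adjusted p = 5.14e-05), and nearer than HDAC3 in 406 and farther in 289 (58.4%, adjusted p = 9.31e-05). A window set around NCoR keeps matches near NCoR, however. In windows around the mean of the 3 centres, an alternative chosen after seeing the data, 0 of 18 pairs differed by the same test and 3 did at an unadjusted p below 0.05. NCoR was then nearer to the HNF4 half-site than SMRT in 378 sites and farther in 317 (54.4%, adjusted p = 0.184). No order of the 3 proteins along the DNA was therefore resolved at this precision. The NCoR centre lay on the 3′ side of the motif about as often as on the 5′ side, in 49.6% (45.98 to 53.1) of sites for FOX, 51.9% (48.0 to 55.9) for HNF6/CUX2, 46.7% (42.9 to 50.4) for the HNF4 half-site, 46.2% (42.1 to 50.3) for C/EBP and 56.6% (49.1 to 63.9) for ERR.

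Motif shares were also set beside the span of the 3 centres. Among the 2339 sites with a span of at most 25 bp, 50.1% (48.1 to 52.2) held at least 1 of the 20 motifs, and among the 2157 sites with a span of 51 to 100 bp, 45.9% (43.8 to 48.1) did. FOX was found in 11.1% (9.83 to 12.4) and 8.81% (7.65 to 10.1) of these, and HNF6/CUX2 in 9.62% (8.45 to 10.9) and 8.11% (6.995 to 9.35). The D-box went the other way, at 2.57% (1.96 to 3.29) and 3.71% (2.95 to 4.59), and ERR was at 2.35% and 2.55%. The intervals of each of these motifs overlapped, and no test was made.

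To look beyond known motifs, all 2080 words of 6 bases were compared between distal shared and distal NCoR-only sites, with a word and its reverse complement taken as 1. By Fisher's exact test with adjustment over all words, 276 (13.3%) were more frequent in distal shared sites and 355 (17.1%) were less frequent. Of the words that were less frequent 191 held a CpG, compared with 11 of those that were more frequent and 604 of all. Within strata of window GC, 200 words were more frequent and 200 less frequent, of which 180 and 161 were also called without strata.

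Of the 8 words with the largest odds ratios, 5 lie inside forms of the HNF6/CUX2 motif. ATCGAT was found in 290 distal shared sites (3.61%) against 1.83% in NCoR-only sites (odds ratio 2.01, adjusted p = 1.69e-14 by Fisher's exact test). ATCAAT was found in 1592 sites (19.8%) against 13.3% (odds ratio 1.62, adjusted p = 1.60e-36), and both are among the 5. Then came AATATT (odds ratio 1.60), GATCGA (odds ratio 1.59), TATTGA (odds ratio 1.59), TATCGA (odds ratio 1.53), ATTTAC (odds ratio 1.502), which shares its last 5 letters with FOX, and ATATTG (odds ratio 1.5004). GATCGA, then TATTGA and TATCGA are the others of the 5, AATATT and ATATTG lie in no form of the HNF6/CUX2 or FOX motif, and all 8 words passed within strata of GC. At the other end all 8 words held CpG dinucleotides, from CGCGCG in 20 sites (0.249%) against 0.794% (odds ratio 0.312, adjusted p = 1.07e-06) to CGCCGA (odds ratio 0.422). Of these 8, only CGCGGA (odds ratio 0.523), then CGGCGC (odds ratio 0.664) and CGCCCG (odds ratio 0.644) passed within strata of GC.

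Distal shared sites were next followed along the chromosomes. When sites within 10 kb were joined, 5322 (66.3%) stood alone, 1910 (23.8%) were in pairs and 791 (9.86%) were in 235 runs of 3 or more. The 2 longest runs had 7 sites each. One spanned 33.8 kb on chromosome 6 from 88717509 to 88751294, had Mgll, the gene of monoglyceride lipase, as its nearest gene throughout, and contained 1 other NCoR peak. The other spanned 42.1 kb on chromosome 11 from 79746570 to 79788681, with Rab11fip4 nearest to 5 of its sites and Utp6 to the rest, and also contained 1 other NCoR peak. Runs of 6 were found at Scarb1, the receptor for high density lipoprotein (chromosome 5, 125311188 to 125331582), at Mrnip and Sqstm1 (chromosome 11, 50176434 to 50201909) and downstream of Fgd2 (chromosome 17, 29396749 to 29423390). All 6 NCoR peaks of the Scarb1 and of the Fgd2 run were distal shared sites.

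Distal shared sites often had another NCoR peak nearby, and most of these neighbours were not themselves shared by the 3 cofactors. Another NCoR peak lay within 10 kb of 5664 distal shared sites (70.6%, 69.6 to 71.6). The same held for 57.6% (56.9 to 58.4) of distal NCoR-only sites and 64.7% (63.3 to 66.1) of distal sites with HDAC3 and without SMRT. For distal shared sites with such a neighbour, the nearest was a distal shared site in 35.5% (34.3 to 36.8) of cases. Distal shared sites made up 22.8% of all NCoR peaks. The nearest was a distal NCoR-only site in 36.2% (35.0 to 37.5), a distal site with HDAC3 and without SMRT in 14.4%, a distal site with SMRT and without HDAC3 in 3.83% and a promoter peak in 9.99%. For NCoR-only sites with such a neighbour, the nearest was a distal shared site in 22.2% (21.3 to 23.0). These shares are descriptions, since the classes set one another's neighbours.

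To relate the sites to genes, each was given to the protein-coding gene whose TSS was nearest. Of 21938 protein-coding genes, 4282 (19.5%) had at least 1 distal shared site, 2427 had exactly 1 and 997 had 2. The most were found at Pik3r1, the regulatory subunit of phosphoinositide 3-kinase, with 17 sites (chromosome 13, 101680563 to 101768217), of which 1 lay within 50 kb of its TSS. Zmiz1 had 14 (chromosome 14, 25459185 to 25666743), 7 of them within 50 kb. Myc had 13 (chromosome 15, 61985391 to 61990374), all between 76.1 and 757 kb downstream. Tbl1xr1, which encodes a subunit of the corepressor complex itself, also had 13 (chromosome 3, 22076652 to 22216594), 3 of them within 50 kb. Foxo1, a transcription factor restrained by insulin, had 12 (chromosome 3, 52268336 to 52353221), from 0.435 to 354 kb downstream, 2 of them within 50 kb. The stretch for which each of these genes was the nearest was 968 kb for Pik3r1, 602 kb for Zmiz1, 1445 kb for Myc, 2227 kb for Tbl1xr1 and 456 kb for Foxo1, beside a median of 47.1 kb for a protein-coding gene. The part of that stretch in the counts was not tested. Bcl6 had 5 distal shared sites beside 10 distal NCoR-only sites, and its distal shared sites lay at -162 to -7.70 kb.

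Lists of liver genes were then set beside the 19.5% of all protein-coding genes and their median of 0 sites. No test was made on lists. Of 39 genes of fatty acid oxidation and ketogenesis, 28 had a site (71.8%, 55.1 to 85.0; median 1). Abcd3, a peroxisomal fatty acid transporter, and Pdk4, the kinase that shuts pyruvate out of oxidation, had 5 each, and Cpt1a, the gatekeeper of mitochondrial fatty acid entry, had 4, between -3.01 and 10.1 kb from its TSS. Among those with none were Acads, Acadvl, Hadha and Hadhb of the mitochondrial pathway. Of 24 genes of lipogenesis and triglyceride handling, 17 had a site (70.8%, 48.9 to 87.4; median 1), with 6 at Elovl5, a fatty acid elongase, 5 each at Elovl6 and at Mlxipl, the carbohydrate response factor, and 4 at Scd1, the stearoyl-CoA desaturase. Fasn, Srebf1 and Acacb had none.

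Genes of glucose and insulin had a site in 15 of 20 cases (75%, 50.9 to 91.3; median 1.5). Beside Pik3r1 and Foxo1 they included Irs2, the insulin receptor substrate, with 12, and Pcx, pyruvate carboxylase, with 4, whereas Akt2, Irs1 and Igfbp1 had none. Of the sites at Irs2, 5 lay within 50 kb of its TSS, as did all 4 at Pcx. The gene model Gm9747 starts inside the 3′ part of Irs1 (chromosome 1, 82233101 to 82291416), and the nearest-TSS rule gave it 10 sites over a stretch of 607 kb, so that the 0 of Irs1 does not describe its surroundings. Clock genes had a site in 13 of 19 cases (68.4%, 43.4 to 87.4; median 1), led by the nuclear receptor gene Rora with 10 and by Bhlhe40, a repressor of the clock, with 6, then Hlf with 4 and Arntl, which encodes BMAL1, with 3. The 3 Period genes had none. Of the sites at Rora 6 lay within 50 kb of its TSS, of those at Bhlhe40 1 did, and at Hlf and Arntl all did. Genes of bile acid and cholesterol metabolism had a site in 15 of 20 cases (75%, 50.9 to 91.3; median 2), with 8 each at Abca1, a cholesterol exporter, and Scarb1, 4 at Cyp7a1, the rate-limiting enzyme of bile acid synthesis, and 3 at Abcb4.

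Hepatocyte transcription factors were the list with the largest share, at 19 of 23 genes (82.6%, 61.2 to 95.05; median 3). Ppara, the receptor that drives fatty acid oxidation, had 9, Foxa2 and Onecut1, which encodes HNF6, had 8 each, and Tbx3 had 7. Foxa3, Hnf4a and Nr1i3 were among those with none. Within 50 kb of the TSS lay 6 of the sites at Ppara, 3 at Foxa2, 1 at Onecut1 and 0 at Tbx3. With only sites within 50 kb counted, 17 of the 23 transcription factor genes had one, beside 15.9% of all protein-coding genes. In every other gene list the number of genes with a site was unchanged by that limit. These genes held the nearest TSS over a median of 126 kb, compared with 33.8 kb for the fatty acid oxidation list and 47.1 kb for all genes. Genes of plasma proteins had a site in 12 of 20 cases (60.0%, 36.1 to 80.9; median 1), with 4 at Apob, 3 each at Alb and Apoa5 and 2 at Ambp. Only 1 of the sites at Apob and 1 of those at Ambp lay within 50 kb of the TSS, whereas all at Alb and Apoa5 did. Of the 6 genes of the corepressor complex, 3 had a site, among them Tbl1xr1 and, with 2, Tbl1x, whereas Ncor1, Hdac3 and Gps2 had none. Genes of the cytosolic ribosome, which every cell expresses, had a site in 2 of 20 cases (10%, 1.23 to 31.7), Rpl11 with 2 and Rps6 with 1. That interval includes the 19.5% of all protein-coding genes, and the ribosomal genes held the nearest TSS over a median of 17.6 kb. Most of these lists also held NCoR-only sites often, at 26 of 39 genes of fatty acid oxidation, 22 of 23 transcription factors and 5 of 20 ribosomal genes, beside 34.9% of all genes.

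**Figure D5:**
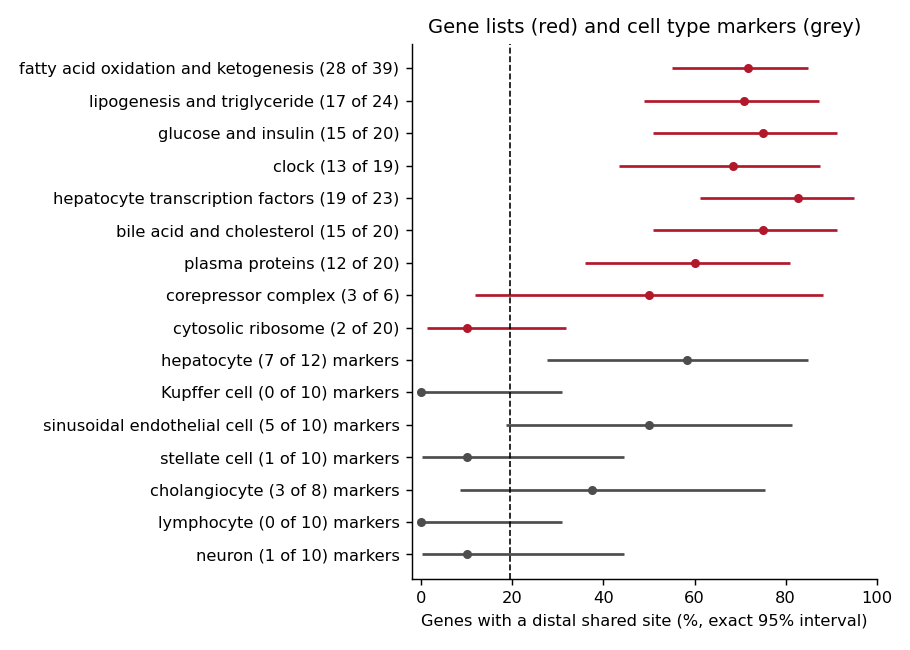
Share of genes (%, x axis) with at least 1 distal shared site in 9 gene lists (red) and 7 lists of cell type markers (grey), with exact 95% intervals as bars and the 19.5% of all protein-coding genes as a dashed line. The lists of liver metabolism, clock, hepatocyte transcription factors and plasma proteins lie between 60% and 82.6%, and the corepressor complex lies at 50%. The ribosomal list lies at 10%, below the line, with an interval that includes the line.

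The labelled tissue was checked against markers of liver cell types. Hepatocyte markers had a distal shared site in 7 of 12 cases (58.3%, 27.7 to 84.8), including Alb with 3 and Cyp2e1 with 2. Markers of Kupffer cells, the macrophages of liver, had one in 0 of 10 cases and lymphocyte markers in 0 of 10, which by the exact interval allows shares of up to 30.8% each. Stellate cell markers had one in 1 of 10 cases (Reln), neuron markers in 1 of 10 (Gad2) and cholangiocyte markers in 3 of 8, where Sox9 alone had 12. None of the 12 at Sox9 lay within 50 kb of its TSS, and the stretch for which it was the nearest gene was 1250 kb. Markers of sinusoidal endothelial cells had one in 5 of 10 cases (50%, 18.7 to 81.3), with 1 site each at Cdh5, Kdr, Oit3, Pecam1 and Stab2. With only sites within 50 kb of a TSS counted, hepatocyte markers had one in 6 of 12 cases and endothelial markers in 4 of 10. Cholangiocyte markers then had one in 2 of 8, stellate cell markers in 0 of 10 and neuron markers in 1 of 10. Among all protein-coding genes 15.9% had such a site. Whole liver holds all of these liver cell types. A site bound in a few cells and a site bound weakly in many cannot be told apart. The part of other cell types in the sites was not tested.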

How the data were processed

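ChIP-seq of NCoR, SMRT and HDAC3 was performed by the authors in fed liver, with 3 libraries per protein. Per the labels and the study's methods, reads were aligned to mm10 with Bowtie, candidate peaks were called with HOMER on the 3 pooled libraries against input, and those kept had passed the authors' DESeq2 test of enrichment over input on the single libraries. Weakly bound sites that missed this test in 1 list count as unshared. By the labels there was 1 input library for this group, named for all 3 proteins. Its part in the coincidence of the lists was not tested. The deposited files hold peak coordinates only (chromosome, start and end), of constant length (228 bp for NCoR and 212 bp for the others), so no replicate error could be computed.

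Centres were paired at 200 bp. Windows of 200 bp were read from RefSeq GRCm38.p6, and TSSs, introns and genes from GENCODE vM21 basic. Classes were compared by two-sided Fisher's exact tests with Benjamini-Hochberg adjustment at 0.05 (Python 3.11.15, numpy 2.4.6, scipy 1.17.1, pandas 2.3.3, matplotlib 3.10.9). GC was held in 13 strata. Peaks are not replicates and neighbours are not independent. The members, lists and tests were chosen with earlier results of these data known. Named were all 20 motifs, the 8 words at each end, the longest runs, and the genes with most sites overall and in each list. Some genes and sites that this rule names are not reported here, and of the sites it names only those with a motif are printed. Scripts were tested on made-up data. Alternatives changed distance, promoter, window, repeats, GC, joining distance and neighbours.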

Additional observations from a re-analysis of the deposited data

How the results depend on the processing

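All errors cover counting only, and no value says how the sites vary between animals. With promoters widened to 5000 bp on either side, the odds ratio for a TSS within 10 kb turned to 1.01 (adjusted p = 0.841), the first intron gave 0.925 and GC-rich windows 0.939. With 1 site per run, introns gave 0.968, the first intron 0.920 and a TSS within 10 kb 0.956. Against NCoR-only sites the number of motifs that were lower was 0 with wider promoters (Fisher's exact test, 3 at an unadjusted p below 0.05) and 1 in 100 bp windows, where 4 were higher. Against sites without SMRT, 2 motifs were lower in 100 bp windows, where DR1 was added (odds ratio 0.578, adjusted p = 0.0174), and in 300 bp windows, where CTCF was added (0.525, adjusted p = 0.00995), 1 was lower with centres within 100 bp, where it was RevDR2 (0.348, adjusted p = 0.0366) and not RORE, and 0 with repeats removed (1 at an unadjusted p below 0.05). Against shared promoter sites 1 motif was higher with centres within 100 bp, wider promoters, 1 site per run, 100 bp windows or repeats removed, and 0 were within GC strata (0 at an unadjusted p below 0.05), while 1 was lower with wider promoters and in 100 bp windows. The 6-base words that were lower numbered 200 within GC strata (161 shared with the 355), and 100 bp windows gave 168 higher and 210 lower. The pairs of cofactor centres that differed numbered 2 in 300 bp windows and 0 in windows around the mean of the 3 centres (3 at an unadjusted p below 0.05). Sites in runs of 3 or more made up 2.65% when joined at 5 kb and 22.2% at 20 kb. The cause of these changes was not tested.

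Odds ratios against NCoR-only sites that crossed 1, in motifs that did not pass, were 1.01 for DR4 at 100 bp between centres. With wider promoters they were 0.984 for RORE, 1.01 for HNF1, 0.939 for GRE and 1.04 for DR4. RORE was 0.966 with 1 site per run. In 100 bp windows DR1 was 0.777, GRE 0.577, AP-1 0.979 and DR4 1.04, and in 300 bp windows ERR was 1.02, RORE 0.941, GRE 0.997 and E-box 1.03. With repeats removed ERR was 1.06, GRE 0.941 and DR4 1.18. The share of sites with the first centre nearer crossed 50% for HNF6/CUX2 with NCoR and SMRT (46.9% in 300 bp windows, 49.8% with repeats removed, 46.2% around the mean centre), C/EBP with NCoR and HDAC3 (49.2% in 300 bp windows, 48.7% around the mean centre), FOX with SMRT and HDAC3 (49.6% with repeats removed) and with NCoR and HDAC3 (48.2% around the mean centre), ERR with SMRT and HDAC3 (52.7% with repeats removed) and BCL6/STAT with NCoR and HDAC3 (47.0% around the mean centre). Against sites without SMRT, motifs that did not pass crossed 1 with wider promoters (BCL6/STAT 1.003, ETS 2.21, GRE 1.31, AP-1 0.961), with 1 site per run (GRE 1.28), in 100 bp windows (HNF4 half-site 0.961, AP-1 0.937, CRE 1.02, DR4 0.916), in 300 bp windows (ERR 1.04, GRE 1.01, E-box 1.01), with repeats removed (BCL6/STAT 1.03) and within GC strata (GRE 1.06, E-box 1.05). Against shared promoter sites they crossed it at 100 bp between centres (BCL6/STAT 0.984), with wider promoters (RevDR2 1.38, HNF1 1.84, GRE 0.854, DR4 1.84), in 100 bp windows (BCL6/STAT 0.924, CTCF 0.714, NFI 0.758), with repeats removed (BCL6/STAT 0.928, GRE 0.952) and within GC strata (BCL6/STAT 0.917, HNF4 half-site 0.884, FOX 0.965, RevDR2 1.04, D-box 0.771). GRE in 100 bp windows gave no odds ratio against shared promoter sites, which then held no match. No paired analysis was possible because the lists combine their libraries and carry no replicate numbers.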
